A study of Mus musculus with 4 samples.

Results

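The mRNAs described here encode 10 regulators of neuronal translation, namely Fmr1, Fxr1, Fxr2, Cyfip1, Cyfip2, Cpeb1, Cpeb2, Cpeb3, Cpeb4 and Pum2, and their levels were followed in ribosome-bound and total RNA. The genes were listed by name for what their proteins do, with earlier results of these data known, and their Ensembl identifiers were matched to symbols in the GENCODE M21 annotation. All 10 members were found among the 31053 genes of the count tables, and all 10 were among the 12336 genes that passed the filter on low counts. The samples were wild-type (WT) mouse primary cortical neurons, grown from embryonic day 18 cortices, with floxuridine in the culture to hold back dividing cells. In 2 of them the RNA bound to ribosomes was recovered by RPS2 eCLIP, in which an antibody to the small-subunit ribosomal protein RPS2 pulls down crosslinked and RNase-trimmed ribosome footprints (RPS2 IP). The other 2 held total RNA taken from the same samples before the IP, so that each replicate number names a pair. The labels give rRNA depletion as the treatment of the IP samples and no treatment for the total RNA samples, so a step of this kind and the IP itself cannot be told apart. Nothing in the labels says that the replicates came from separate cultures. The p-values below rest on the spread between these samples, in some fits pooled over genes, and that spread may be technical.

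These proteins decide when and how strongly an mRNA is translated, and at synapses they allow new protein to be made locally. FMRP, the product of Fmr1 that is lost in fragile X syndrome, binds mRNAs and holds back their translation, and CYFIP1 links it to the cap-binding factor eIF4E. CPEB proteins bind the cytoplasmic polyadenylation element in 3′ untranslated regions (UTRs) and either repress the mRNA or have its poly(A) tail lengthened, and Pumilio proteins bind a neighbouring kind of element and mostly repress. The study divides IP counts by total RNA counts for each gene and uses the result as an eCLIP measure of translational efficiency. Here each library was first scaled, so a ratio is relative to the typical gene and is not the share of an mRNA on ribosomes. The question was whether the mRNAs of the regulators themselves lie above or below their total RNA level on that scale.

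The libraries held 16460545 and 9941486 counts in RPS2 IP and 5281196 and 4899718 in total RNA. Of these, 1 gene, Gm42418, took 42.6 and 27.9% in RPS2 IP and 39.8 and 15.3% in total RNA, more in the IP of each pair. Summed markers of neurons lay between 2744 and 3177 CPM (counts scaled to the size of each library, here by edgeR's trimmed-mean method, TMM), and those of inhibitory neurons between 1049 and 1181 CPM, with IP higher in pair 1 and lower in pair 2. Those of excitatory neurons were higher in the IP of both pairs, at 2862 against 2585 CPM and at 2476 against 2398 CPM. The single excitatory markers were mixed. In pair 1, Slc17a7 was lower in IP (712 against 737 CPM) and the rest were higher. In pair 2, Camk2a (1571 against 1602 CPM) and Neurod6 (1.80 against 2.96 CPM) were lower in IP and the rest were higher. Other cells were present and unevenly so. The 6 astrocyte markers summed to 2081 and 1729 CPM in the IP and total RNA of replicate 1 against 687 and 666 CPM in replicate 2, and the 5 microglial markers to 60.1 and 58.8 against 6.83 and 4.93 CPM. Of the microglial markers, C1qa stood at 37.3 and 34.3 CPM, Cx3cr1 at 12.2 and 10.2 and Csf1r at 10.2 and 13.1 in the IP and total RNA of replicate 1, and at most at 3.41 CPM in replicate 2, while P2ry12 and Aif1 were below 1 CPM in all 4 libraries. In such bulk samples, fewer cells of a type and less RNA per cell cannot be told apart.

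Within the FMRP family, Fxr2 was by far the most abundant mRNA and Fmr1 the least. Levels of different genes are compared per kilobase of exon, as CPM per kilobase. Fmr1 stood at 1.85 and 1.56 CPM per kilobase in RPS2 IP and at 1.71 and 1.72 in total RNA. Its total RNA level was above that of 30.04% of the 12152 protein-coding genes tested. Fxr1, its autosomal paralogue with a role in muscle and heart as well as in neurons, stood at 4.89 and 5.08 in IP and at 3.98 and 5.17 in total RNA. Fxr2, the other paralogue, stood at 20.7 and 28.3 in IP and at 25.0 and 31.6 in total RNA. None of the 3 genes separated IP from total RNA libraries in these values. Fxr2 held 75.4 to 82.1% of the family's summed level over the 4 libraries and Fmr1 only 4.48 to 6.74%, and Fxr2 exceeded Fmr1 by between 11.2 and 18.3 times. The size of these gaps depends on the length used. Exonic length is 8966 bases in Fmr1 and 3766 in Fxr2, but the coding sequences have 1896 and 2025 bases. In CPM without a length, Fxr2 stood at 77.8 and 106 in IP against 16.6 and 14.0 for Fmr1. In total RNA it stood at 94.0 and 119 against 15.4 and 15.5.

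Cyfip2 was the most abundant of all 10 mRNAs. CYFIP1 and CYFIP2 are close paralogues that sit in the WAVE complex, which drives actin branching, and CYFIP1 also carries the repressive arm of FMRP. Cyfip2 stood at 84.1 and 89.2 CPM per kilobase in RPS2 IP and at 90.4 and 106 in total RNA, above 98.5% of protein-coding genes in the latter. Cyfip1 stood at 6.30 and 4.78 in IP and at 6.81 and 4.31 in total RNA. Both IP values of Cyfip2 lay below both of its total RNA values, while those of Cyfip1 separated by replicate instead. Cyfip1 was higher in replicate 1 by 0.40 (IP) and 0.66 (total RNA) on the log2 scale, and the astrocyte and microglial marker sums given above were higher in replicate 1 too, though their part in the Cyfip1 difference was not tested. The ratio of Cyfip2 to Cyfip1 was accordingly 13.4 and 13.3 in the IP and total RNA of replicate 1 and 18.6 and 24.5 in those of replicate 2. Its size also depends on the length used, as exonic length is 11941 bases in Cyfip1 and 7103 in Cyfip2. Both coding sequences have 3762 bases.

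The 4 CPEB mRNAs and Pum2 lay closer together. Cpeb1, whose protein is the founding member of the family and recruits the polyadenylation machinery, stood at 3.03 and 3.79 CPM per kilobase in IP and at 4.36 and 4.23 in total RNA. Cpeb2 stood at 5.62 and 3.94 in IP and at 8.40 and 5.72 in total RNA. Cpeb3, whose protein represses synaptic mRNAs and has been tied to the persistence of memory, stood at 9.80 and 8.48 in IP and at 13.1 and 11.4 in total RNA. For these 3 genes both IP values were below both total RNA values. Cpeb4, which like CPEB2 and CPEB3 belongs to the second branch of the family, stood at 9.10 and 9.07 in IP and at 8.32 and 7.95 in total RNA. Pum2, which encodes a Pumilio repressor that acts in dendrites, stood at 6.28 and 7.11 in IP and at 6.07 and 5.93 in total RNA. For both of them both IP values were above both total RNA values.

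**Figure D1:**
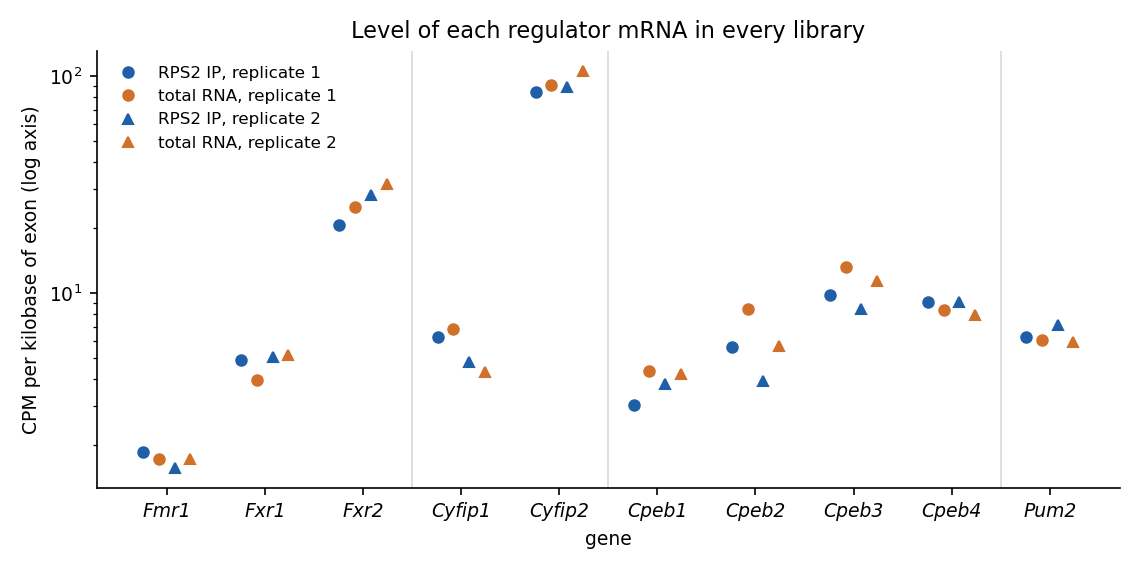
Level of each of the 10 mRNAs as CPM per kilobase of exon (log axis), 1 point per library, with RPS2 IP in blue, total RNA in orange, replicate 1 as circles and replicate 2 as triangles. Cyfip2 and Fxr2 stand above the rest and Fmr1 lies lowest, while Cpeb1, Cpeb2 and Cpeb3 have both blue points below both orange points.

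In total RNA the order from the top was Cyfip2 at 98.1 ± 10.8 CPM per kilobase (SD, n = 2), Fxr2 at 28.3 ± 4.70 and Cpeb3 at 12.2 ± 1.24, and at the bottom Fmr1 at 1.72 ± 0.0069. These 4 did not overlap their neighbours. From Cpeb4 down through Cpeb2, Pum2, Cyfip1, Fxr1 and Cpeb1 the means ran from 8.13 ± 0.26 to 4.30 ± 0.085, and each neighbouring pair in that stretch overlapped. In RPS2 IP, Cpeb3 at 9.14 ± 0.93 and Cpeb4 at 9.08 ± 0.024 overlapped as well. The order in the middle depends on the length used, since with the length of 1 coding transcript per gene the ranks from 3 to 9 change.

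Within each pair, the shares of Cpeb2, Cpeb3 and Cpeb4 in the CPEB family differed between IP and total RNA, a difference that was not tested. The shares carry no correction for GC content, which is 40.0% in Cpeb4 against 47.5% in Cpeb2 and 51.0% in Cpeb3. Cpeb4 held 33.0 and 35.9% of the family's summed level in RPS2 IP but 24.3 and 27.2% in total RNA. The share of Cpeb2 was 20.4 and 15.6% in IP against 24.6 and 19.5% in total RNA, lower in the IP of each pair. Cpeb3 held 35.6 and 33.5% against 38.4 and 38.8%. Cpeb4 thus stood at 1.62 and 2.30 times the level of Cpeb2 in IP, whereas in total RNA it stood at 0.990 and 1.39 times.

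**Figure D2:**
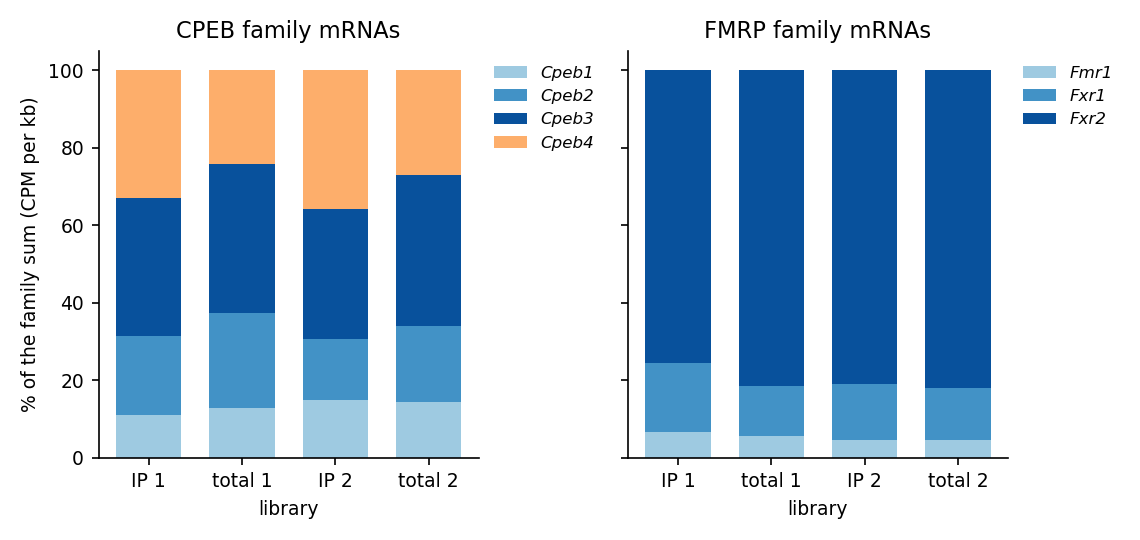
Share of each gene in the summed level (CPM per kilobase) of the CPEB family (left) and the FMRP family (right), 1 stacked bar per library, in percent. The Cpeb4 segment is 33.0 and 35.9% in RPS2 IP against 24.3 and 27.2% in total RNA, while Fxr2 fills at least 75.4% of every bar at right.

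Compared as CPM, the scale that also carries the tests, 4 of the 10 mRNAs (Cyfip2, Cpeb1, Cpeb2 and Cpeb3) had both RPS2 IP libraries below both total RNA libraries, against 14.9% of all genes tested. The opposite held for 2 (Cpeb4 and Pum2), against 16.9% of all genes. Within pairs, the log2 ratio of IP to total RNA was below 0 in both pairs for 5 mRNAs, against 32.2% of all genes, above 0 in both for 2, against 34.3%, and of opposite sign for the other 3. The median ratio of the 10 mRNAs was -0.11 in pair 1 and -0.15 in pair 2, beside 0.01 in each for all genes.

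None of the 10 mRNAs passed an adjusted p of 0.05 when the 2 IP libraries were compared with the 2 total RNA libraries without pairing (edgeR's quasi-likelihood test with Benjamini-Hochberg adjustment), and none had an unadjusted p under 0.05. That fit called 0 of the 12336 genes in either direction (0% for both), with 349 genes (2.83%) at an unadjusted p under 0.05, and DESeq2 called 5 genes, all lower in IP and none of them a member. With the replicate number as a block, which takes out the difference between the pairs, the same test called 2 members, Cpeb2 and Cpeb3, both lower in IP, and none higher. Over all genes the blocked fit called 7.55% lower and 6.63% higher. That split of 931 lower to 818 higher moved to 878 and 283 with scaling by library size only and to 352 and 482 with an offset for GC content and exonic length, while the 2 members were called in each. The biological coefficient of variation was 29.7% without the block and 7.93% with it, and only 1 residual degree of freedom per gene stood behind the latter. The blocked fit estimated infinite prior degrees of freedom, so its errors and p-values rest on the spread pooled over genes and not on that of the gene itself.

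Cpeb2 had the largest difference of the 10. It stood at 43.9 and 30.8 CPM in RPS2 IP and at 65.7 and 44.7 CPM in total RNA. Both IP values lay below both total RNA values, though replicate 2 of total RNA was only just above replicate 1 of IP. The log2 ratio was -0.58 in pair 1, with a 95% counting interval of -0.78 to -0.37, and -0.53 in pair 2, with an interval of -0.77 to -0.30 (exact Clopper-Pearson intervals, which cover counting error only). The blocked fit put Cpeb2 at -0.56 ± 0.12 (SE), 1.47-fold lower in IP (edgeR adjusted p = 0.00021), and the unpaired fit at -0.56 ± 0.30. Cpeb2 was called in 7 of 7 fits with the block. Replicate 1 exceeded replicate 2 by 0.51 in IP and by 0.55 in total RNA on the log2 scale, in the same direction as the astrocyte and microglial marker sums, and their part in that difference was not tested. Without pairing, the estimate was -0.84 when IP replicate 1 was left out and -0.26 when total RNA replicate 1 was.

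Cpeb3 stood at 72.6 and 62.9 CPM in RPS2 IP and at 97.3 and 84.3 CPM in total RNA, and the IP and total RNA values did not overlap. The log2 ratio was -0.42 in both pairs, with counting intervals of -0.59 to -0.26 in each. The blocked fit put it at -0.42 ± 0.11, 1.34-fold lower in IP (edgeR adjusted p = 0.00236). It was called in 6 of 7 fits with the block, the exception being DESeq2 (adjusted p = 0.0630), with which 1 member, Cpeb2, was lower beside 3.10% of all genes.

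Cpeb4 went the other way in both pairs. It stood at 58.0 and 57.8 CPM in RPS2 IP and at 53.0 and 50.6 CPM in total RNA, so that the 4 libraries differed little but did not overlap. Its log2 ratios were 0.13 and 0.19, both with counting intervals that reached 0. The blocked estimate was 0.16 ± 0.12 (edgeR adjusted p = 0.420), and it changed sign, to -0.06, once the counts were offset for the GC content and exonic length of each gene. Relative to Cpeb4, the ratio of Cpeb2 was lower by 0.71 in pair 1 and 0.72 in pair 2, and that of Cpeb3 by 0.55 and 0.61. These gaps were smaller with the GC and length offset. The blocked estimates then were -0.59 (Cpeb2), -0.37 (Cpeb3) and -0.06 (Cpeb4), beside -0.56, -0.42 and 0.16 without it. No test of a difference between 2 genes was run. Cpeb1 had only 82 and 108 counts in total RNA. It stood at 12.7 and 15.9 CPM in IP and at 18.3 and 17.8 CPM in total RNA. The ratios of Cpeb1 were -0.51 and -0.16, with intervals of -0.91 to -0.13 and -0.51 to 0.20, the second spanning 0. Its blocked estimate of -0.33 ± 0.19 did not pass the test (edgeR adjusted p = 0.270).

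**Figure D3:**
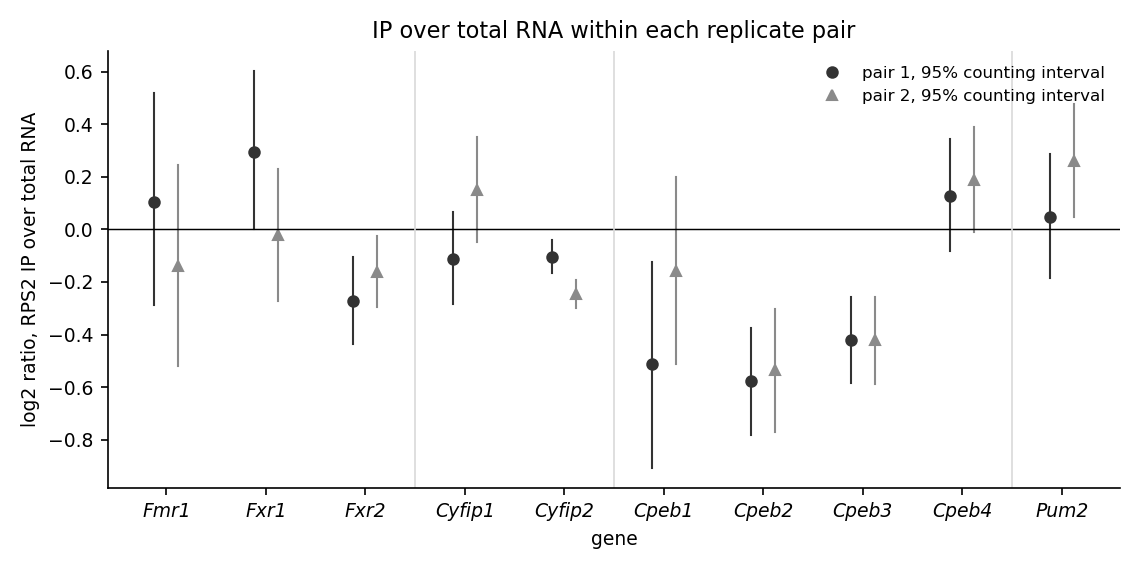
Log2 ratio of RPS2 IP to total RNA for each mRNA within pair 1 (dark circles) and pair 2 (grey triangles), with 95% counting intervals as vertical lines. Cpeb2 (-0.58 and -0.53) and Cpeb3 (-0.42 in both) lie below 0 with intervals that do not reach it, as do Fxr2 and Cyfip2. Cpeb4 and Pum2 lie above 0 in both pairs, but both intervals of Cpeb4 and the pair 1 interval of Pum2 reach 0.

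The FMRP family showed no called difference. Fmr1 stood at 16.6 and 14.0 CPM in RPS2 IP and at 15.4 and 15.5 CPM in total RNA, so that the IP values lay on either side of the total RNA values. With 69 and 94 counts in total RNA, the intervals of its ratios were -0.29 to 0.52 and -0.52 to 0.24, both spanning 0. Its blocked estimate was -0.02 ± 0.20 (edgeR adjusted p = 0.969). Fxr1 stood at 32.0 and 33.3 CPM in IP and at 26.1 and 33.9 CPM in total RNA, with total RNA replicate 1 apart from the other 3 libraries, and at 0.13 ± 0.14 in the blocked fit (edgeR adjusted p = 0.634), or -0.08 with the GC and length offset. The ratios of Fxr1 were 0.30 and -0.02, with intervals of 0.00046 to 0.60, just short of 0, and -0.27 to 0.23. Fxr2 stood at 77.8 and 106 CPM in IP and at 94.0 and 119 CPM in total RNA, lower in the IP of each pair but overlapping between groups. Its ratios were -0.27 and -0.16, with intervals of -0.44 to -0.11 and -0.30 to -0.03 that did not reach 0. The blocked estimate of -0.21 ± 0.11 for Fxr2 had an unadjusted p of 0.0467 but did not pass adjustment (edgeR adjusted p = 0.184).

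Neither CYFIP mRNA passed the test. Cyfip2, the deepest measured of the 10 with 2884 to 8269 counts, stood at 598 and 633 CPM in RPS2 IP and at 642 and 751 CPM in total RNA. Its ratios of -0.10 and -0.25 had intervals that did not reach 0, from -0.17 to -0.04 and from -0.30 to -0.19, yet the blocked estimate of -0.18 ± 0.10 did not pass the test (edgeR adjusted p = 0.256). Cyfip1 stood at 75.2 and 57.1 CPM in IP and at 81.3 and 51.4 CPM in total RNA, with ratios of opposite sign (-0.11 and 0.15) and a blocked estimate of 0.02 ± 0.11 (edgeR adjusted p = 0.958). Pum2 stood at 45.6 and 51.6 CPM in IP and at 44.1 and 43.1 CPM in total RNA. Both IP values of Pum2 were the higher ones. Its ratios were 0.05 and 0.26, with intervals of -0.18 to 0.29 and 0.05 to 0.48, the first spanning 0. The blocked estimate of Pum2 was 0.16 ± 0.12 (edgeR adjusted p = 0.447), or close to 0 (0.0025) with the GC and length offset.

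**Figure D4:**
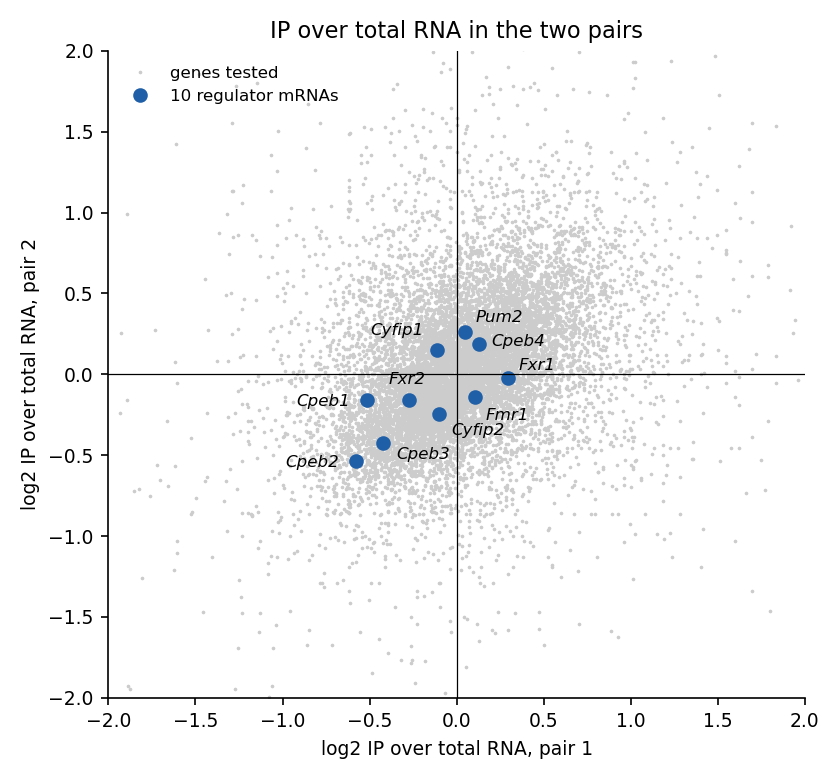
Log2 ratio of RPS2 IP to total RNA in pair 1 (x axis) against pair 2 (y axis) for the 12336 genes tested (grey, genes beyond 2 in either direction not drawn) and the 10 regulator mRNAs (blue, named). Cpeb2 and Cpeb3 sit at the lower left, at -0.53 and -0.42 in pair 2, and Fmr1, Fxr1 and Cyfip1 lie where the signs of the pairs differ.

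By their profile over the 4 libraries (Euclidean distance of log2 CPM centred on each gene's mean), the nearest pair among the 10 was Cpeb4 and Pum2, at 0.13. Fxr2 and Cyfip2 were each other's nearest at 0.27, as were Cpeb2 and Cpeb3 at 0.35, and the 4 libraries are the only points behind these distances. Fmr1 lay closest to Ncoa1, Atxn2 and Commd4 among all genes, at distances of 0.023, 0.024 and 0.028, but 586 of 12335 genes lay within 0.2 of it.

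Several of these mRNAs hold matches to the elements that their proteins, or those of the other regulators, bind, and the shares among genes tested are given below. The sequences were read from GENCODE M21 transcripts on the mRNA strand only, from the annotated protein-coding transcript with the longest 3′ UTR of each gene, so they show what the longest annotated form holds and not which form these neurons make. This transcript was chosen after seeing the data, because the transcript with the longest coding sequence has a 3′ UTR of only 255 bases in Fxr1, 61 in Cpeb1 and 45 in Cpeb4, in which neither kind of motif occurred. The Pumilio motif searched was TGTANATA. It occurred 2 times in Fmr1 and in Pum2 itself, 1 time each in Cyfip1, Cpeb1, Cpeb2 and Cpeb3, and not in the annotated 3′ UTRs of Fxr1, Fxr2, Cyfip2 or Cpeb4. Of 2848 genes tested with a 3′ UTR of 2000 to 4000 bases, 44.3% hold at least 1 and 14.4% at least 2 such motifs. The sites of Fmr1 and Pum2, and those of the 2 mRNAs that were lower in IP, are shown in mm10 coordinates with 8 bases on either side and with the motif in capitals.
Fmr1, chrX:68717291-68717314 (+): taaaatacTGTAGATAattaacca
Fmr1, chrX:68717352-68717375 (+): atattctcTGTACATAttagcgac
Pum2, chr12:8750157-8750180 (+): tatagagaTGTATATAgaattata
Pum2, chr12:8750410-8750433 (+): tacagaatTGTATATActtataat
Cpeb2, chr5:43286406-43286429 (+): tttcagtgTGTACATAaactaaaa
Cpeb3, chr19:37022120-37022143 (-): ttttgtttTGTAAATAaatgtgcc

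The 2 sites of Fmr1 lie 1624 and 1685 bases into its 3′ UTR, and none of the sites in the 10 genes falls in the last 500 bases before the annotated end, a stretch in which 14.7% of 9460 genes hold one. The cytoplasmic polyadenylation element was searched as TTTTAT or TTTTAAT, again on the mRNA strand, with overlapping matches each counted. The longest 3′ UTR of Cpeb2 held 24 of them in 3778 bases. Of the 2848 genes with a 3′ UTR of 2000 to 4000 bases, 89.7% hold at least 1, and no other held as many as Cpeb2. Per kilobase, the Cpeb2 density of 6.35 was above that of 99.9% of the 7142 genes with a 3′ UTR of at least 1000 bases, whose median was 1.10. Cpeb4 held 17 elements in 4102 bases (4.14 per kilobase, above 98.0% of genes), Pum2 held 8, Cpeb3 6, Fmr1 and Cpeb1 4 each, Cyfip1 3, Fxr1 and Cyfip2 1 each, and the short 3′ UTR of Fxr2 none. In the last 500 bases, where 48.5% of genes hold at least 1, Cpeb2 held 8, Cpeb4 4 and Cpeb1 3. The 30-base stretches richest in the element in the 2 densest genes are shown with the elements in capitals, those of Cpeb2 overlapping one another.
Cpeb2, chr5:43289141-43289170 (+): ttgtttttttgggTTTTATTTTATTTTAAT
Cpeb4, chr11:31933748-31933777 (+): acttcattTTTTAATataaataaTTTTAAT
Cpeb2 and Cpeb4, the 2 genes densest in this element, thus had ratios of IP to total RNA of opposite sign, -0.56 and 0.16 in the blocked fit, the first called and the second not, but both were below 0 with the GC and length offset, at -0.59 and -0.06. A match to these letters is a description and not a bound site.

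The paralogues were compared to see how far reads of one could be counted for another. Aligned coding sequences of Cyfip1 and Cyfip2 were identical at 77.7% of positions, those of the FMRP family at 55.9 to 63.4%, those of Cpeb2, Cpeb3 and Cpeb4 at 50.8 to 58.9%, and that of Cpeb1 at 35.6 to 46.0% of positions with the others. No member shared exonic bases with another gene on its own strand. Of all 30-base windows of their transcripts, 3.50% in Fmr1 also occurred in transcripts of other genes (chiefly Dffa), 1.70% in Fxr1 and 1.23% in Cyfip1, and at most 0.346% in each of the others. In mm10 the genes lie at chrX:68678541-68717963 (Fmr1), chr3:34019943-34070322 (Fxr1), chr11:69632990-69653297 (Fxr2), chr7:55841745-55932602 (Cyfip1), chr11:46193850-46312859 (Cyfip2), chr7:81347026-81455465 (Cpeb1), chr5:43233170-43289724 (Cpeb2), chr19:37021291-37208601 (Cpeb3), chr11:31872211-31935634 (Cpeb4) and chr12:8674134-8752581 (Pum2). Their exonic lengths had a median of 7181.5 bases and their GC content a median of 47.7%, beside 4672 bases and 50.5% for all genes tested.

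The partners and targets of these regulators were read from 5 lists of known genes with the 10 members left out, which held 83 tested genes in all. The unpaired fit called 0 of the 83 genes. The blocked fit called 8 higher in IP and 18 lower, beside the 6.63 and 7.55% of all genes given above.

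Among mRNAs known as FMRP targets, 12 of 24 were lower in IP in the blocked fit, 1 was higher (Sod1, an antioxidant enzyme gene, named after its value was seen) and 11 did not pass. Bsn, which encodes the presynaptic scaffold Bassoon, stood at 1962 and 1627 CPM in IP and at 3190 and 2449 CPM in total RNA, and fell by 0.65 ± 0.11 on the log2 scale (edgeR adjusted p = 3.6e-07). Dlgap3, which encodes a postsynaptic scaffold, stood at 272 and 222 CPM in IP and at 432 and 305 CPM in total RNA, and fell by 0.56 ± 0.10 (edgeR adjusted p = 1.1e-06). For both genes each IP value was below each total RNA value. The median of the list was -0.25 in the blocked fit. These mRNAs are long and rich in GC, with a median exonic length of 10311.5 bases and a median GC content of 53.6%. With the GC and length offset the median of the list was 0.00 to 2 decimals (-8.6e-05), only 1 gene was lower (the potassium channel gene Kcnd2, named after its value was seen) and 1 higher (Kcnc1, likewise), while over all genes that fit called 2.85% lower and 3.91% higher. Bsn and Dlgap3 then had adjusted p = 0.516 and 0.746 (edgeR). Cpeb2 and Cpeb3 stayed called with the same offset, at -0.59 and -0.37 (edgeR adjusted p = 0.00016 and 0.0205). The offset covers only GC content and whole exonic length, and the cause of the differences in the targets or in these 2 members was not tested.

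The WAVE complex, into which the CYFIP proteins assemble, had 3 of 7 tested partners higher in IP in the blocked fit and none lower, with a list median of 0.15. With the GC and length offset 2 were higher and the list median was 0.03. Brk1, its smallest subunit, stood at 28.5 and 42.9 CPM in IP and at 20.7 and 25.6 CPM in total RNA (0.62 ± 0.15, edgeR adjusted p = 0.00079). Abi2, an adaptor subunit, stood at 97.6 and 108 CPM in IP and at 65.7 and 74.6 CPM in total RNA (0.55 ± 0.11, edgeR adjusted p = 3.0e-05). All IP values of both lay above their total RNA values, and both kept their call with the GC and length offset (edgeR adjusted p = 0.0423 and 0.00187). The third was Nckap1 (0.28), named after its value was seen, which did not keep it. Cyfip1 and Cyfip2, at 0.02 and -0.18, were not called.

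The remaining lists were mixed. Of 20 partners of FMRP and CYFIP in translation, 1 was higher and 3 were lower in IP in the blocked fit, with a median of 0.00 to 2 decimals (-8.2e-04). The 4 were chosen for naming after their values were seen, namely the RNA helicase gene Ddx3x (0.39) and, lower, Mov10, which encodes another helicase (-0.91), the Y-box protein gene Ybx1 (-0.40) and Ranbp9 (-0.34). Mov10 averaged only 5.43 CPM over the 4 libraries, and its call was near the threshold (edgeR adjusted p = 0.0454). With the GC and length offset the list had 0 higher and 4 lower and a median of -0.10, and Ddx3x and Mov10 lost their call (edgeR adjusted p = 0.450 and 0.182). Purb and Nufip1, also named after their values were seen, were called lower with the offset only. Of 19 tested genes of the CPEB polyadenylation and repression machinery, 2 were higher and 2 lower, with a median of 0.08, against 1 higher, 2 lower and a median of 0.03 with the offset. These were mostly different genes, named after their values were seen. Wdr33 was lower in both fits, while Btg2 and Cpsf3 (higher) and Sympk (lower) lost their call. Tob2 (higher) and Tob1 (lower) were called with the offset only. Sympk, which encodes the scaffold symplekin, stood at 179 and 180 CPM in IP and at 253 and 281 CPM in total RNA, without overlap, and fell by 0.57 ± 0.10 (edgeR adjusted p = 9.1e-07, or 0.0803 with the GC and length offset). Of 13 tested Pumilio partners and CCR4-NOT deadenylase genes, 1 was higher and 1 lower, with a median of 0.16, but with the offset none was called in either direction and the median was -0.04. Cnot8, which encodes a catalytic deadenylase, stood at 16.4 and 19.7 CPM in IP and at 9.13 and 13.5 CPM in total RNA, without overlap (0.67 ± 0.20, edgeR adjusted p = 0.0107, or 0.119 with the offset).

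**Figure D5:**
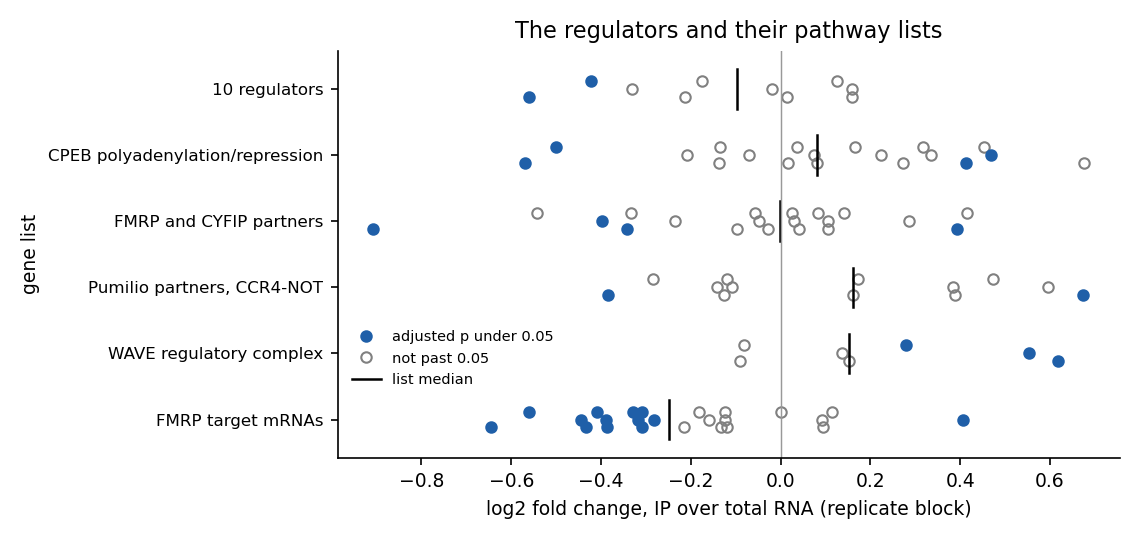
Log2 fold change of RPS2 IP over total RNA in the fit with the replicate block for the 10 regulators and the tested genes of the 5 lists, 1 point per gene, filled where the adjusted p was under 0.05, with the median of each list as a vertical line. The FMRP target list sits to the left with a median of -0.25 and 12 filled points below 0, and among the regulators only Cpeb2 and Cpeb3 are filled.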

How the data were processed

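Gene counts of 4 libraries, 2 of RPS2 IP and 2 of total RNA, were used as the authors deposited them. Per the file headers, the counts were made by the authors with featureCounts 1.5.3 on reads counted by strand over the Cell Ranger mm10 gene annotation (3.0.0), without multimapping reads. The study's methods name cutadapt and STAR before that step, and no removal of PCR duplicates. The deposited files also give the exonic length of each gene, used for CPM per kilobase. Groups and replicate numbers came from the sample titles. Symbols were matched for 30934 of 31053 genes. The members and the gene lists were chosen with earlier results of these data known.

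Counts were filtered with filterByExpr, scaled by TMM and tested with the quasi-likelihood method of edgeR 4.0.16 in R 4.3.3, with 4 libraries, 2 groups and Benjamini-Hochberg adjustment over 12336 genes at a threshold of 0.05. Ratios within pairs were taken from log2 CPM with a prior count of 2, and their 95% intervals are exact (Clopper-Pearson). Alternatives were DESeq2 1.42.0, limma 3.58.1 (voom), other scalings and filters, thinning to the shallowest library, leaving out each library, and the replicate number as a block. Total RNA was taken from the IP samples before the IP, so the number marks a pair, and same-numbered samples deviated together from their group means (correlation over genes 0.733). The GC and length offset was a loess fit of the log ratio of each library to the mean (span 0.5) on both properties. Named pathway genes were the 3 highest and the 3 lowest log2 fold changes among called genes averaging 10 CPM or more, and for each member the nearest other member, with the 3 nearest of all genes for Fmr1. Total counts ran from 4899718 to 16460545, and the total RNA libraries limit the precision. The test code was checked on simulated counts.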

Additional observations from a re-analysis of the deposited data

How the results depend on the processing

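The replicate block was the setting that changed most. Without it, 0 genes were called, apart from genes lower in IP with DESeq2 (5) and with no low-count filter (14), and 1 to 8 genes lower in IP when one library at a time was left out (8 without IP replicate 1, 1 without total RNA replicate 1, 3 without either of the others). No member or pathway gene was called in any fit without the block. With the replicate block, genes called higher and lower in IP numbered 818 and 931, and 158 and 382 with DESeq2, 283 and 878 with library size only, 482 and 352 after correction for GC content and length, 878 and 926 with at least 10 counts in every library, 416 and 646 after thinning, 685 and 927 with limma-voom, and 452 and 602 at a threshold of 0.01, which was chosen after seeing the data. Members called lower under the block numbered 2, or 1 with DESeq2, and none was called higher. Pathway genes called higher and lower numbered 8 and 18, then, in the same order of settings, 1 and 11, 2 and 12, 4 and 7, 8 and 16, 2 and 15, 6 and 17, and 4 and 10. Cpeb1, Cpeb2, Cpeb3, Fxr2, Cyfip2 and Pum2 kept their direction under every alternative run. Fmr1 changed sign to 0.011 with no low-count filter, 0.054 with library size only without Gm42418, 0.043 with thinning and 0.013 with the block and thinning, and ran from -0.14 to 0.098 when each library was left out. Fxr1 was at -0.075 with the block and the correction and ran from -0.052 to 0.32 over left-out libraries. Cyfip1, at -0.0013 in the unpaired fit, was at 0.015 with the block, 0.024 with no low-count filter, 0.0078 with at least 10 counts, 0.067 without Gm42418, 0.037 with thinning, and with the block at 0.074 with the correction, 0.025 with at least 10 counts, 0.067 with thinning and 0.011 with limma-voom, and ran from -0.30 to 0.36 over left-out libraries. Cpeb4 turned to -0.059 only with the block and the correction. The cause of these sign changes was not tested. Depth limits Fmr1 and Cpeb1 most, with under 110 counts in each total RNA library.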
